A study of Mus musculus with 6 samples.

Results

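Imprinted growth-control genes were examined in RNA sequencing of bone cells from control mice and from mice given dexamethasone, a synthetic glucocorticoid. Imprinted genes are transcribed mainly from the chromosome inherited from one parent, and many of them act on fetal and postnatal growth. The 10 genes listed were H19, Meg3, Dlk1, Peg3, Mest, Grb10, Plagl1, Ndn, Rian and Mirg, chosen by symbol. Of these, 7 had a row among the 29616 genes of the expression table, matched by Ensembl identifier to the GENCODE M21 annotation. Dlk1, Meg3 and Ndn were not analysed here.

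All mice were labelled C57BL/6. The treated mice were 8 weeks old at the first dose and received dexamethasone for 4 weeks at a daily dose of 0.08 µg/g, and the controls were labelled only as control. Each group had 3 libraries, described as biological replicates, and the sources used here do not state whether the mice behind a library were pooled. The labels call the material bone cells, and the study's text describes Osteocalcin-positive cells sorted from bones after the marrow had been removed.

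Paternally expressed imprinted genes often favour growth and maternally expressed ones often restrain it. Mest, Peg3, Plagl1, Dlk1 and Ndn are expressed from the paternal chromosome in most tissues. H19, Meg3, Rian, Mirg and, outside neurons, Grb10 are expressed from the maternal chromosome. Rian and Mirg are long non-coding RNAs of the Dlk1-Dio3 cluster, in which the maternal chromosome gives non-coding RNAs, small nucleolar RNAs and microRNAs, and the paternal chromosome gives the proteins Dlk1, Rtl1 and Dio3. The libraries were made from mRNA and their values are summed over both parental alleles, so neither allelic origin nor mature microRNAs were measured.

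The promoters of the genes with the clearest differences are shown because imprinted promoters are often rich in CpG, the dinucleotide that carries DNA methylation. The following runs are the 250 bases upstream of the RefSeq start in the GRCm38.p6 build, 5′ to 3′ on the strand of the gene, with each CpG in capitals. The upstream promoter of Mest lies at chr6:30733256-30733505 on the plus strand and holds 7 CpG. The downstream promoter of Mest at chr6:30737800-30738049 holds 14. A Grb10 promoter at chr11:12037421-12037670 on the minus strand holds 40, which is more than in 98.9% of the 32851 mouse promoters of the same length, whose median is 6. The other Grb10 promoter, at chr11:12027972-12028221, holds 8 and is not printed.
Mest upstream promoter: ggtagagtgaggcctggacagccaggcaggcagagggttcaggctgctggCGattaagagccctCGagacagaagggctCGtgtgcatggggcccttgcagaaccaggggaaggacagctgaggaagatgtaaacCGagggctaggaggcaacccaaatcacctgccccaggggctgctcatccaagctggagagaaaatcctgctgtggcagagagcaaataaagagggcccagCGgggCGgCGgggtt
Mest downstream promoter: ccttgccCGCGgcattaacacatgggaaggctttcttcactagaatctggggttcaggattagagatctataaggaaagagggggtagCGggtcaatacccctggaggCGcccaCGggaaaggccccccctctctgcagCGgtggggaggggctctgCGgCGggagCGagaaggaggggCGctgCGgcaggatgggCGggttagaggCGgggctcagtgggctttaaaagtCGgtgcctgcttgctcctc
Grb10 promoter: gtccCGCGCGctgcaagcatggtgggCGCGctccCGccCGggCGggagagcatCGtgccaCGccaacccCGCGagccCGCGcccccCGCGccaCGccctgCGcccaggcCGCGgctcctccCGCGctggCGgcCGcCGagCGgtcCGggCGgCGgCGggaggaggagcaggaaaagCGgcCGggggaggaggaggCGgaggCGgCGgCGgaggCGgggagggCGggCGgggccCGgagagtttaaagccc

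The promoters of Rian and Mirg are shown with another feature, the AGAACA motif, which is an arm of the palindromic element bound by the glucocorticoid receptor. Capitals mark AGAACA or its reverse complement TGTTCT. Rian, at chr12:109603695-109603944 on the plus strand, holds no CpG and a single motif that begins 99 bases upstream of the start. Mirg, at chr12:109734731-109734980 on the plus strand, holds 10 CpG and 2 motifs that begin 119 and 106 bases upstream. GENCODE M21 places the start of Mirg farther upstream than RefSeq does. The Mirg window therefore lies inside the GENCODE Mirg gene, and it contains the mature sequences miR-668-5p, miR-668-3p and miR-485-3p.
Rian promoter: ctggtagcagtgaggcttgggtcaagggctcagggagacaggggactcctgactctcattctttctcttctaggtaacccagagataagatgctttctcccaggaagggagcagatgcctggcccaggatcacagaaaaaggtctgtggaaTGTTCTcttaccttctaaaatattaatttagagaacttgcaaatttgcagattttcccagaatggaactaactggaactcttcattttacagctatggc
Mirg promoter: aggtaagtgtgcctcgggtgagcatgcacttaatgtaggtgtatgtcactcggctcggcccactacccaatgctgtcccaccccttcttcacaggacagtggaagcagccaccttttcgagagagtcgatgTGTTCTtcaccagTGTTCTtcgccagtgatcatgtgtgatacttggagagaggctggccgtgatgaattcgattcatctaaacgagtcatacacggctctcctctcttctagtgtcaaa
The motif occurred on either strand in 16.1% of all promoters of this length, and the promoters of Mest, Grb10, Plagl1 and Peg3 did not hold it. The full palindrome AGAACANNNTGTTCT was found in 3 of all promoters (0.00913%) and in none of these genes. These matches describe the letters of the window only.

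The microRNAs hosted by Mest and Mirg are part of what these transcription units produce, and their mature RefSeq sequences are shown with the seed, bases 2 to 8, in capitals. Mir335 lies in an intron of Mest. Mirg spans 14 microRNA genes on its strand, of which 9 overlap its exons. Rian spans 3. Among the 26 mature sequences within Mirg, miR-453 and miR-496a-5p share a seed, and miR-134-5p and miR-410-3p come from genes that overlap Mirg exons.
mmu-miR-335-5p: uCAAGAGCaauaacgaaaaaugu
mmu-miR-335-3p: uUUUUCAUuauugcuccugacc
mmu-miR-453: aGGUUGCCucauagugagcuugca
mmu-miR-496a-5p: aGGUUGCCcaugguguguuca
mmu-miR-134-5p: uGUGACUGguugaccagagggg
mmu-miR-410-3p: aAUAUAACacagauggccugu

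The depth was 72596611 to 89910728 reads per library. Genes averaging 10 or more normalized counts were tested, and of these 17442 genes, 3894 (22.3%) were differentially expressed past both cut-offs, an adjusted p-value under 0.05 from limma and an absolute log2 fold change of 1 or more. With the adjusted p-value alone the share was 72.5%, and for 74.7% of the genes the groups did not overlap, so a difference of some size was the common case in these libraries. Of the osteoblast markers, Col1a1 and Runx2 fell by 1.88 and 1.75 on the log2 scale, Spp1 rose by 5.25, and Bglap, the Osteocalcin gene, had 107 ± 12.9 (SD, n = 3) normalized counts in control and 12.2 ± 2.80 (SD, n = 3) in dexamethasone libraries. Among the 8 osteoblast markers, 7 were lower and 1 was higher past both cut-offs. None of the 5 tested endothelial markers passed both. Their log2 fold changes were 0.76, 0.25, 0.74, 0.12 and -0.75 for Vwf, Kdr, Pecam1, Egfl7 and Tek. Tek had -1.21 and passed both without dexamethasone replicate 2. By the limma adjusted p-value alone, Vwf, Kdr and Pecam1 were higher and 2 did not pass, where 37.2% of all genes were higher. At the same total, Kdr and Pecam1 did not pass (limma adjusted p = 0.124 and 0.0816). The defining marker Cdh5 had at most 3 reads in each library. The summed level of the 8 hematopoietic markers was 121 to 157 normalized counts in control and 810 to 860 in dexamethasone libraries. Within that list 2 genes were higher and 2 lower past both cut-offs. Itgb2 and Cd53 rose by 3.20 and 4.11 on the log2 scale, Coro1a and Laptm5 had log2 fold changes of -1.77 and -1.49, Lcp1 differed by 0.03, and the pan-leukocyte marker Ptprc stayed between 1.76 and 5.81 normalized counts. The 5 chondrocyte markers summed to 1629 to 1673 and 5482 to 6235 normalized counts, with Col2a1 higher by 1.90 and Comp lower by 1.23, and the 5 adipocyte markers to 9.79 to 10.5 and 17.4 to 22.9 normalized counts. Of these adipocyte markers, none of which was tested, Cfd had means of 2.49 and 16.9 normalized counts, whereas Adipoq had 4.03 and 1.39, Plin1 2.41 and 1.02, and Cidec 1.22 and 0.39. The 5 skeletal muscle markers summed to 63.3 to 79.3 and 55.6 to 73.5 normalized counts, with log2 fold changes of 0.33, -1.56 and 0.82 for Mylpf, Acta1 and Tnnt3. The part of any of these differences in the results for the imprinted genes was not tested.

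Mest showed the largest decrease among the imprinted genes listed. Mest (ENSMUSG00000051855, chromosome 6) encodes a protein of the alpha/beta-hydrolase fold of the endoplasmic reticulum, and is known for its link to fetal growth and to fat cell size. The control libraries had 6585, 7071 and 6872 normalized counts. The dexamethasone libraries had 622, 656 and 692 normalized counts. All 3 dexamethasone libraries lay far below all 3 control libraries, and neither group spread widely. The mean fell from 6843 ± 244 to 657 ± 35.0 normalized counts (mean ± SD, n = 3 per group), which is 10.4-fold lower. On the log2 scale, after adding 1 to each normalized count, the difference was -3.38 (standard error 0.0471, 95% interval -3.48 to -3.28, limma adjusted p = 2.09e-26). In bulk RNA, fewer cells that express Mest and less Mest RNA per cell cannot be told apart.

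**Figure D1:**
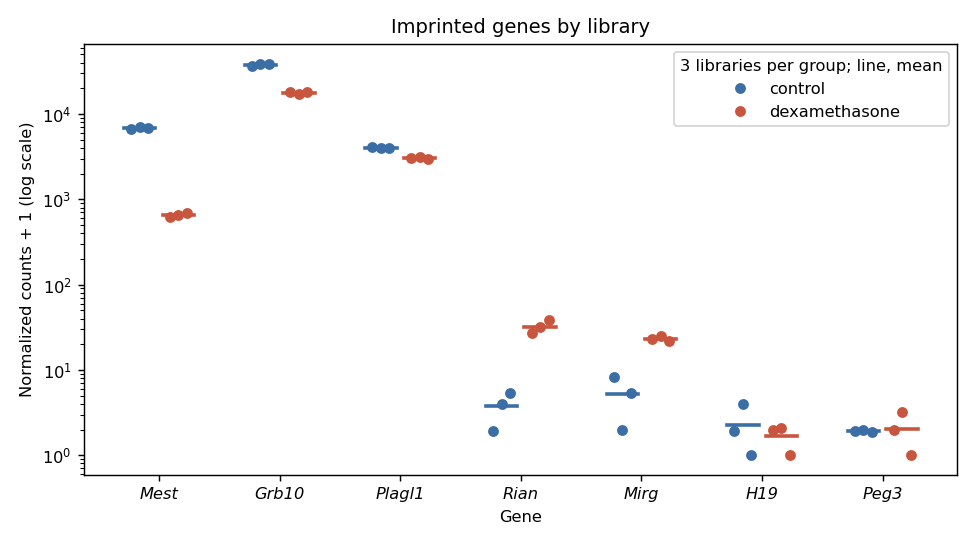
Normalized counts plus 1 (log scale) of the 7 imprinted genes in each library, with 3 control libraries in blue and 3 dexamethasone libraries in red, and a line at each group's mean. Mest, Grb10 and Plagl1 are lower and Rian and Mirg higher in every dexamethasone library, while H19 and Peg3 lie at 3 reads or fewer throughout.

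Mest shares exon sequence with the gene on its other strand. In GENCODE M21, 912 bases or 23.1% of the Mest exon bases overlap Copg2, which encodes a subunit of the coat of transport vesicles. The library kit keeps strand, but the strand setting of the count is not given in the sources used here, so reads from these bases cannot be assigned with certainty. Copg2 changed in the same direction by less, from 9986 ± 450 to 6192 ± 52.3 normalized counts (mean ± SD, n = 3 per group, log2 fold change -0.69, limma adjusted p = 1.67e-14). The ratio of Mest to Copg2, in which the scaling of a library cancels, was 0.692, 0.679 and 0.685 in the control libraries and 0.0995, 0.107 and 0.112 in the dexamethasone libraries. The log2 of this ratio was lower by 2.69 with dexamethasone, and the exact two-sided permutation test gave p = 0.1, the smallest value that 3 libraries against 3 allow. This ratio was computed after the Mest and Copg2 values had been seen.

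The row of Mir335, the precursor gene in the Mest intron whose mature sequences are printed above, had few reads. It had 13, 15 and 12 control reads and 0, 3 and 1 reads with dexamethasone. All dexamethasone values were at or under 3 reads, the limit that a count of 0 allows. With each dexamethasone library set to 3 reads, Mir335 was 3.86-fold lower. This is not a lower bound, since counts of 3 and 1 allow more than 3 reads. It did not reach the mean needed for a test, it was added after its values were seen, and reads counted in this row may come from the unspliced Mest transcript as well as from the precursor.

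Grb10 was the most abundant of the genes listed and also fell. Grb10 (ENSMUSG00000020176, chromosome 11) encodes an adaptor protein that binds the activated insulin and IGF1 receptors and dampens their signalling. It had 36482, 38984 and 38025 normalized counts in the control libraries. It had 18319, 17028 and 18041 normalized counts in the dexamethasone libraries. All 3 dexamethasone libraries were below all 3 control libraries, and each group spread little. The mean fell from 37830.2 ± 1262 to 17796 ± 679 normalized counts (mean ± SD, n = 3 per group), which is 2.13-fold lower (log2 fold change -1.09, standard error 0.0382, 95% interval -1.17 to -1.01, limma adjusted p = 2.24e-18). The size of this decrease was close to the cut-off of 1 and remained past it under every alternative tried, which ranged from -1.23 to -1.06.

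Plagl1 was lower in every dexamethasone library but did not reach the cut-off on the fold change. Plagl1 (ENSMUSG00000019817, chromosome 10) encodes a zinc finger transcription factor that can arrest the cell cycle. The control libraries had 4057, 3982 and 3996 normalized counts. The dexamethasone libraries had 3034, 3094 and 2942 normalized counts. The groups were well separated relative to their spread, with means of 4011 ± 40.1 (SD, n = 3) and 3023 ± 76.4 (SD, n = 3) normalized counts. The log2 fold change was -0.41 (standard error 0.0384, 95% interval -0.49 to -0.33, limma adjusted p = 8.1e-10), smaller than the 0.45 that is the median absolute log2 fold change of all genes tested.

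Rian and Mirg moved in the opposite direction, from very few reads. Rian (ENSMUSG00000097451, chromosome 12) is a non-coding RNA whose introns host C/D box small nucleolar RNAs. It had 1, 3 and 5 control reads and 27, 28 and 32 reads with dexamethasone. These equal 0.918, 2.94 and 4.39 normalized counts in control libraries and 25.8, 30.5 and 37.2 in dexamethasone libraries. The highest control library remained below the lowest dexamethasone library. The mean rose from 2.75 ± 1.75 to 31.2 ± 5.75 normalized counts (mean ± SD, n = 3 per group), a ratio of 11.3 (log2 fold change 3.21, standard error 0.448, 95% interval 2.28 to 4.14, limma adjusted p = 6.73e-07).

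Mirg (ENSMUSG00000097391, chromosome 12) is a non-coding RNA named for the microRNA genes it contains. It had 8, 1 and 5 control reads and 23, 22 and 18 reads with dexamethasone. The corresponding levels were 7.34, 0.979 and 4.39 normalized counts in control libraries and 21.9, 24.0 and 20.9 in dexamethasone libraries. The dexamethasone libraries were close to each other, and control replicate 2 was the lowest of all. The mean rose from 4.24 ± 3.19 to 22.3 ± 1.55 normalized counts (mean ± SD, n = 3 per group), a ratio of 5.26 (log2 fold change 2.38, standard error 0.483, 95% interval 1.38 to 3.38, limma adjusted p = 0.000108). Leaving out each library in turn gave log2 fold changes of 2.79 to 3.53 for Rian and 1.79 to 2.83 for Mirg. Small RNA genes on the same strand overlap 3.42% of the exon bases of Rian and 5.03% of those of Mirg, so part of these reads cannot be assigned with certainty.

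H19 and Peg3 were at the limit of detection. H19 (ENSMUSG00000000031, chromosome 7), a non-coding RNA expressed at high levels in fetal tissues, had 1, 3 and 0 control reads and 1, 1 and 0 reads with dexamethasone. Peg3 (ENSMUSG00000002265, chromosome 7), which encodes a large zinc finger protein, had 1, 1 and 1 control reads and 1, 2 and 0 reads with dexamethasone. No difference was detectable at this depth for either gene.

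The levels differed among the genes far more than between the groups. Per kilobase of exon, the mean over the 6 libraries was 3060 normalized counts for Grb10, above 93.9% of the tested genes. The same level per kilobase was 950.5 for Mest and 449.8 for Plagl1, above 75.8% and 58.8% of the tested genes. Mirg and Rian had 1.82 and 0.93 normalized counts per kilobase, above 0.513% and 0.0766% of the tested genes, so their differences concern transcripts that were among the scarcest tested.

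**Figure D2:**
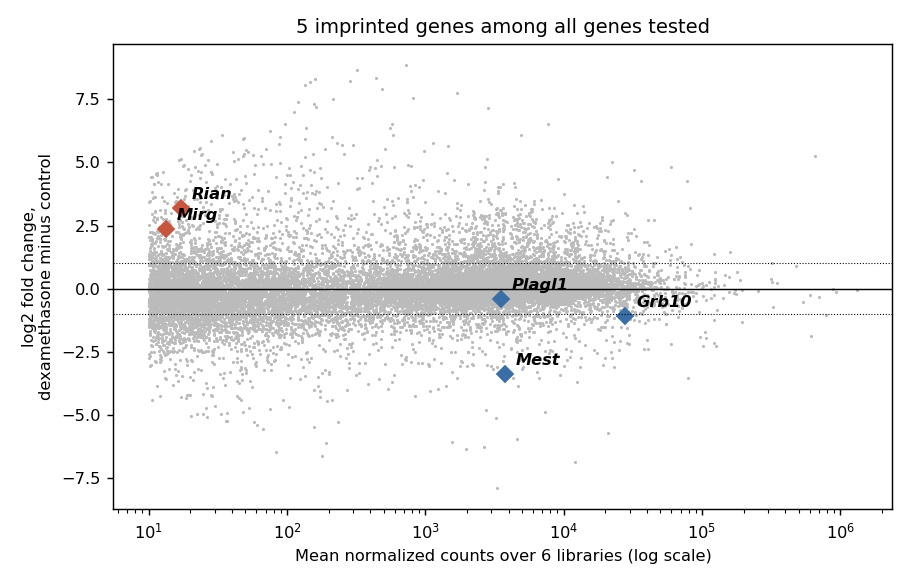
Log2 fold change (dexamethasone minus control) against the mean normalized count over the 6 libraries (log scale) for the 17442 tested genes in grey, with the imprinted genes as diamonds, red where higher and blue where lower, and dotted lines at the cut-offs of 1 and -1. Mest lies well below the lower line at -3.38, whereas Rian and Mirg lie at the low end of the range of levels.

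Of the 7 genes with a row, 5 were tested and 4 were differentially expressed, with Rian and Mirg higher and Mest and Grb10 lower. Across all genes tested, 11.7% were higher and 10.6% lower by the same cut-offs. Rian and Mirg passed the filter on low values only through their dexamethasone libraries, since their control means were under 10, and nothing is read from the share of tested genes that differed. The tested genes of paternal expression, Mest and Plagl1, both had lower values. Those of maternal expression went both ways, with Grb10 lower and Rian and Mirg higher.

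Other imprinted genes were taken from a list of 48, of which 40 had a row and 30 were tested. Of the tested genes, 6 (20%) were differentially expressed, close to the 22.3% of all genes, with 2 higher and 4 lower. By the limma adjusted p-value alone, 7 were higher, 16 were lower and 7 did not pass, beside 37.2% higher and 35.2% lower of all genes. The median log2 fold change was -0.17, beside 0.00071 for all genes tested. In 23 of the 30 genes the groups did not overlap, a share near the 74.7% of all genes.

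The genes lower past both cut-offs were Slc38a4, Dcn, Zrsr1 and Peg13. Slc38a4, an amino acid transporter, had 130.4, 147 and 155 normalized counts in the control libraries and 22.9, 19.6 and 27.9 in the dexamethasone libraries (log2 fold change -2.58, limma adjusted p = 1.12e-11). Dcn, which encodes the matrix proteoglycan decorin, fell from 3709 ± 83.5 to 1307 ± 55.5 normalized counts (mean ± SD, n = 3 per group), a log2 fold change of -1.50. Zrsr1, an RNA-binding protein related to a splicing factor, and Peg13, a non-coding RNA, had log2 fold changes of -1.43 and -1.38.

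The genes higher past both cut-offs, Rtl1 and Rasgrf1, had few reads and passed the filter on low values only through their dexamethasone libraries. Rtl1, a retrotransposon-derived protein of the Dlk1-Dio3 cluster known for its role in the placenta, had 3, 2 and 1 control reads and 64, 32 and 31 reads with dexamethasone. With each control library set to 3 reads, Rtl1 was 15.9-fold higher, which is not a lower bound. The log2 fold change was 3.98 (95% interval 3.10 to 4.87, limma adjusted p = 8.81e-09). MicroRNA genes overlap 8.12% of its exon bases on the opposite strand and 1.26% on the same strand. Part of the Rtl1 reads therefore cannot be assigned with certainty. Rasgrf1, an exchange factor that activates Ras, had 3.67, 6.85 and 6.15 normalized counts in the control libraries and 14.3, 22.9 and 8.14 in the dexamethasone libraries. The difference on the log2 scale, 1.22 (limma adjusted p = 0.0201), became just under 1 (limma adjusted p = 0.0772) without control replicate 1 and 0.89 (limma adjusted p = 0.137) without dexamethasone replicate 2.

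The most abundant of these imprinted genes differed by little. Igf2r, the receptor that clears IGF2, fell by 0.20 on the log2 scale (limma adjusted p = 0.000157). The changes on this scale were -0.14 for Pon3, a lactonase, and 0.35 for Osbpl5, a lipid-binding protein. Ube3a, a ubiquitin ligase, had 8494 ± 118 (SD, n = 3) and 8174 ± 134 (SD, n = 3) normalized counts and did not pass the test (log2 fold change -0.06, limma adjusted p = 0.151), but did so at the same total (-0.17, limma adjusted p = 8.2e-05), after quantile normalization (-0.26, limma adjusted p = 2.15e-07) and with edgeR (adjusted p = 0.0195). Copg2, described above, was the only one of these 5 past an absolute log2 fold change of 0.5.

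**Figure D3:**
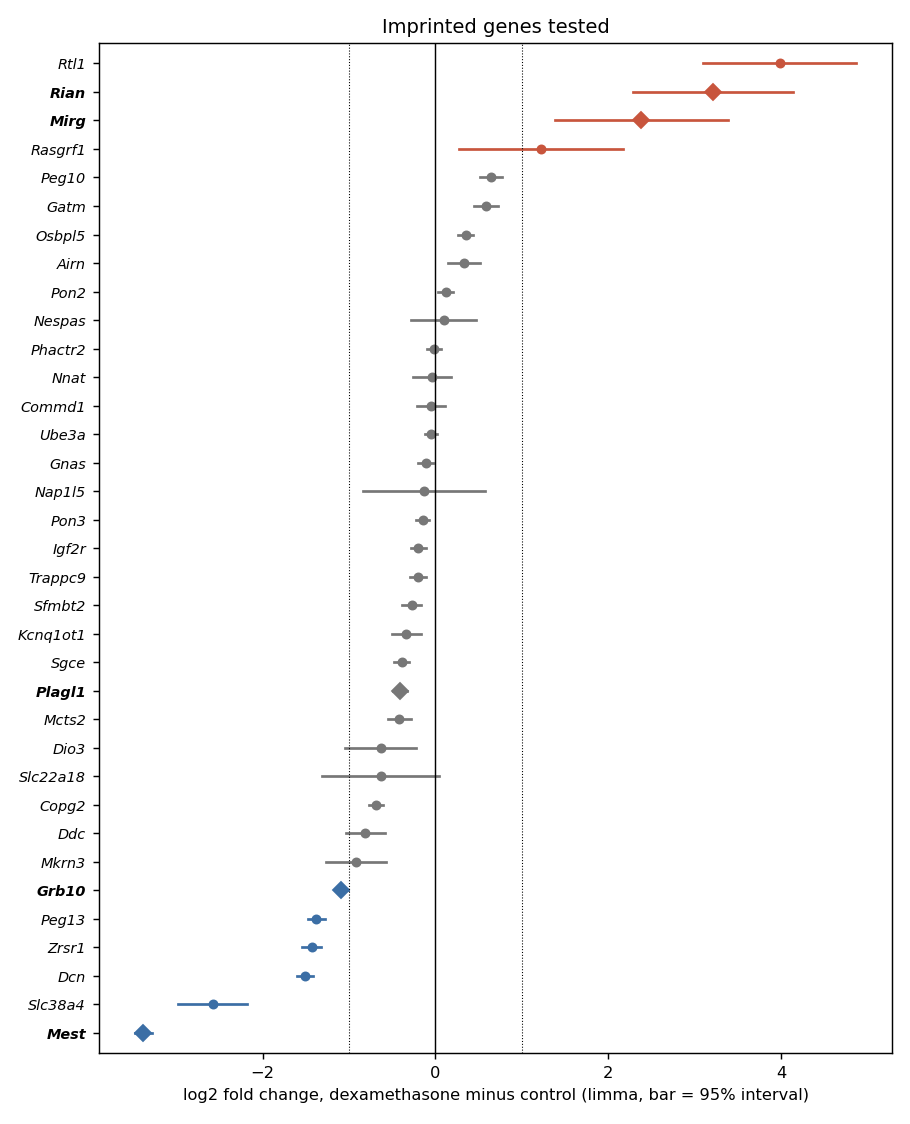
Log2 fold change (dexamethasone minus control, limma) with its 95% interval for the 35 imprinted genes tested, with the growth-control genes as diamonds in bold, red or blue where past both cut-offs and grey otherwise, and dotted lines at 1 and -1. The top 3 genes, Rtl1, Rian and Mirg, share the Dlk1-Dio3 cluster, and Mest has the lowest value at -3.38.

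Rian, Mirg and Rtl1 lie in the Dlk1-Dio3 interval of chromosome 12, and the other rows between Rtl1 and Dio3 were examined beside them. This set was assembled after the values of Rian and Mirg had been seen. Of 14 rows, 8 were tested, with 3 higher and 1 lower past both cut-offs, beside 11.7% and 10.6% of all genes. The 3 higher genes, Rtl1, Rian and Mirg, passed the filter on low values only through their dexamethasone libraries, so nothing is read from these counts. The lower gene was Dio3os, a non-coding RNA next to Dio3, with 40.4, 36.2 and 28.1 normalized counts in the control libraries and 13.4, 7.63 and 17.4 in the dexamethasone libraries (log2 fold change -1.43, limma adjusted p = 0.000371). Dio3, which encodes the deiodinase that inactivates thyroid hormone, had 90.9, 66.5 and 70.3 normalized counts in the control libraries and 47.7, 39.2 and 59.3 in the dexamethasone libraries (log2 fold change -0.64, limma adjusted p = 0.00667, and 0.00223 to 0.0554 over the alternatives). Gm34667 differed by 0.39 on the log2 scale (limma adjusted p = 0.0396) and did not pass with edgeR, with DESeq2, at the same total or with a replicate block (adjusted p = 0.0599, 0.0979, 0.135 and 0.0632). Gm3379 and Gm34719, with -0.26 and 0.57, did not pass the test (limma adjusted p = 0.398 and 0.0793), although Gm34719 did after quantile normalization (limma adjusted p = 0.0421). The remaining 6 rows had too few reads to be tested.

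**Figure D4:**
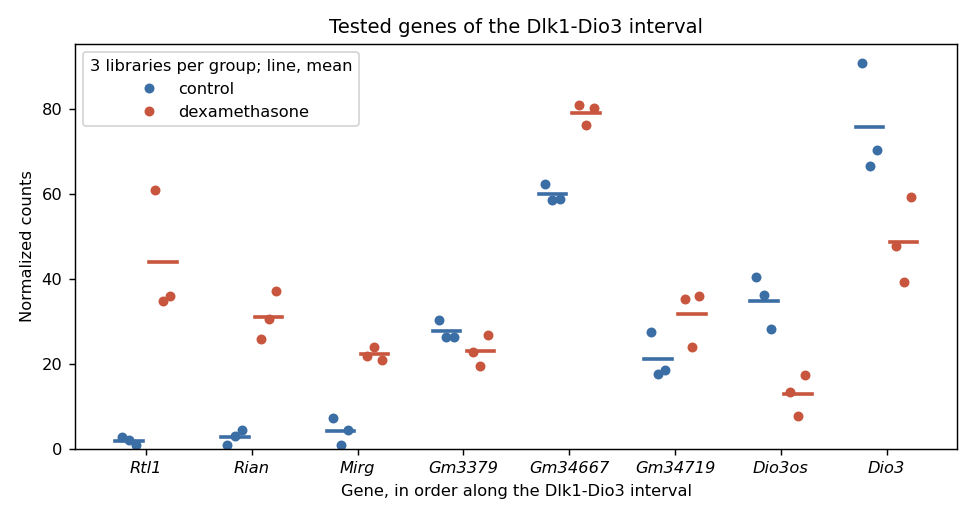
Normalized counts of the 8 tested genes of the Dlk1-Dio3 interval in each library, in order along the chromosome, with 3 control libraries in blue, 3 dexamethasone libraries in red and a line at each group's mean. Rtl1, Rian, Mirg and Gm34667 are higher and Dio3os and Dio3 lower in the 3 dexamethasone libraries, without overlap. These are 6 of the 8 genes, a share near the 74.7% of all genes tested.

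Grb10 acts on the insulin and IGF1 receptors, and 18 genes of that pathway were listed, of which 16 were tested. Past both cut-offs, 2 were higher and 2 were lower (25%, beside 22.3% of all genes). By the limma adjusted p-value alone 7 were higher (37.2% of all genes), 6 were lower (35.2% of all genes) and 3 did not pass, and the median log2 fold change was 0.07.

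Among the ligands and receptors, Igf1, the growth factor itself, had 2061, 1955 and 2084 normalized counts in the control libraries and 119, 119 and 128 in the dexamethasone libraries. All dexamethasone libraries were far below all control libraries (log2 fold change -4.05, standard error 0.0711, limma adjusted p = 1.48e-24). Igf1r, its receptor, rose from 12706 ± 150 to 27621 ± 1007 normalized counts (mean ± SD, n = 3 per group), a log2 fold change of 1.12 that was 0.95 after quantile normalization. Insr, the insulin receptor, had a log2 fold change of 0.19, which was -0.02 after quantile normalization.

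Among the proteins that act at the receptors, Irs1, a docking protein, fell from 37256 ± 671 to 6559 ± 267 normalized counts (mean ± SD, n = 3 per group, log2 fold change -2.51, limma adjusted p = 4.33e-26). Irs2, its paralogue, had 2479 ± 8.68 (SD, n = 3) and 4896 ± 221 (SD, n = 3) normalized counts and a log2 fold change of 0.98, just under the cut-off, and of 1.01 without dexamethasone replicate 3. Ptpn1, a phosphatase that removes phosphate from these receptors, had a log2 fold change of 1.02 that went to 0.91 when libraries were set to equal totals, to 0.83 by quantile normalization and to 0.98 without dexamethasone replicate 1, and that was just under 1 with TMM factors or edgeR. Grb14, an adaptor related to Grb10, did not pass the test (log2 fold change 0.08, limma adjusted p = 0.245, and 0.0263 to 0.905 over the alternatives). Nedd4, a ubiquitin ligase that can bind Grb10, was the most abundant gene of the list with 132759 ± 4520.0 (SD, n = 3) and 110387 ± 3938 (SD, n = 3) normalized counts (log2 fold change -0.27). Akt1, a kinase downstream of the receptors, had a log2 fold change of 0.19, which was -0.0037 after quantile normalization.

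**Figure D5:**
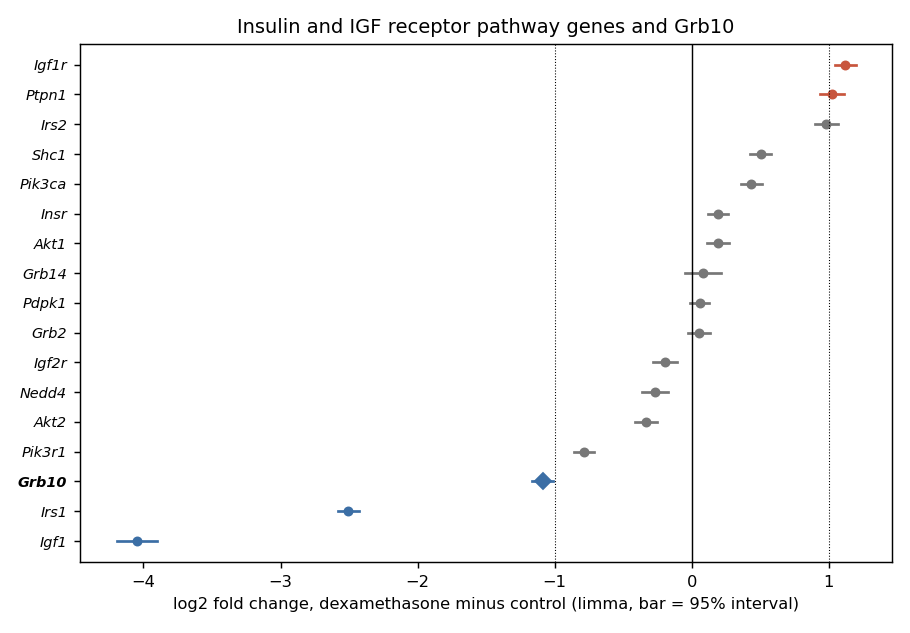
Log2 fold change (dexamethasone minus control, limma) with its 95% interval for Grb10, shown as a diamond, and 16 tested genes of the insulin and IGF receptor pathway, red or blue where past both cut-offs and grey otherwise, with dotted lines at 1 and -1. Igf1 at -4.05, Irs1 at -2.51 and Grb10 at -1.09 are the lower genes and Igf1r at 1.12 and Ptpn1 at 1.02 the higher ones.

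Genes beside the imprinted genes were compared to show whether differences extended past them. The 3 nearest tested genes on each side that were on no imprinted list gave 42 genes, of which 7 were higher and 6 lower past both cut-offs (31%, beside 22.3% of all genes), with a median log2 fold change of 0.01. By the limma adjusted p-value alone 13 were higher, 17 were lower and 12 did not pass, where the shares of all genes were 37.2% and 35.2% for higher and lower. Beside Mest, Cep41 was lower by less than the cut-off (log2 fold change -0.52). Beside Grb10, Fignl1, which encodes an ATPase of DNA repair, went the opposite way to Grb10 and had 1195, 1368 and 1366 normalized counts in control and 8852, 8806 and 8421 in dexamethasone libraries (log2 fold change 2.73, limma adjusted p = 9.51e-25). On the same side of Grb10, 1700042O10Rik and Abca13 each had a log2 fold change of 1.07, close to the cut-off. It was 0.96 and 0.93 with a pseudocount of 5, and 0.96 for each gene at the same total. For 1700042O10Rik it was 0.82 without control replicate 2 and 0.85 without dexamethasone replicate 2. For Abca13 it was 0.99, 0.96 and 0.99 without control replicate 2, control replicate 3 and dexamethasone replicate 2. Begain, the nearest tested gene outside the Dlk1-Dio3 interval on the side of Dlk1, rose from 106 ± 8.52 to 297 ± 21.9 normalized counts (mean ± SD, n = 3 per group, log2 fold change 1.48, limma adjusted p = 2.15e-11).

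The other neighbours past both cut-offs lay near genes that had few reads or were not analysed here, and near Plagl1. Near H19, Prr33 rose from 33.3 ± 3.33 to 87.0 ± 4.91 normalized counts (mean ± SD, n = 3 per group) and R74862 fell by 1.34 on the log2 scale. Tspan32, also near H19, had a log2 fold change of -1.22, and its limma adjusted p-value was 0.0882 without control replicate 1 and 0.057 without control replicate 2, while without dexamethasone replicate 3 its log2 fold change no longer reached the cut-off. Near Peg3, Gm16306 had -1.28. Near Ndn, Gm27252 had 3.45, A330076H08Rik -1.79 and Gm3257 -1.82. Gm27252, one of the higher neighbours counted above, had 5, 2 and 5 control reads. It passed the filter on low values only through its dexamethasone libraries. Near Plagl1, B230208H11Rik was higher by 1.22, opposite in sign to Plagl1.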

How the data were processed

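The authors aligned and counted reads per gene with STAR (2.7.10a) and deposited normalized counts, a signal made by dividing each count by a DESeq2 (1.36.0) size factor. The submitters' processing notes name GRCm39. The strand setting of the count is not given in the sources used here. Every deposited value was a whole number of reads (100%, tolerance 1e-06), so reads were recovered. Replicates differed by more than the sampling noise (chi-square per degree of freedom 2.75 to 18.7). The 28087 symbols came from GENCODE M21. Gene and exon positions of that annotation, in the GRCm38 and not the GRCm39 build, gave the neighbours, the interval rows, the exon lengths and the overlaps. Genes with a mean of at least 10 were log2-transformed after adding 1, which understates changes of scarce genes, and compared with limma (3.58.1, R 4.3.3, trended) with Benjamini-Hochberg adjustment, two-sided. The p-values rest on the spread between these libraries, moderated by a variance trend fitted over all genes tested. Without that trend, the limma adjusted p-values were much larger. They were 1.12e-06 for Mest, 1.7e-05 for Grb10, 0.000211 for Plagl1, 0.00109 for Rian and 0.0107 for Mirg. The cut-offs were those of the study's methods. The named genes were all 10 listed genes, and of the pathway and imprinted lists those past both cut-offs plus the 5 most abundant, of the neighbours those past both cut-offs, and of the markers the 3 most abundant. Other genes were named after their values were seen. An item that these rules name is not reported here. The genes and lists were chosen with earlier results of these data known. Alternatives were other pseudocounts, filters, scalings, edgeR (4.0.16) and DESeq2 (1.42.0) on recovered reads, a replicate block and leaving out each library. The intervals are those of limma, and the limit of 3 reads covers only the counting error of a count of 0. The scripts were tested on simulated data.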

Additional observations from a re-analysis of the deposited data

How the results depend on the processing

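Mest and Grb10 passed both cut-offs under all 17 alternatives, with log2 fold changes of -3.52 to -3.34 and -1.23 to -1.06. Rian and Mirg passed under the 16 in which they could be tested, with 2.24 to 3.53 and 1.62 to 2.83, and Plagl1 remained under the fold cut-off with -0.57 to -0.39. With the filter raised to 100 normalized counts, Rian and Mirg were not tested, and the number past both cut-offs went from 4 to 2 of the growth-control genes, from 6 to 3 of the other imprinted genes, from 13 to 5 of the neighbours and from 3894 to 2170 of all genes (1350 higher and 820 lower, against 2037 and 1857). With the adjusted p-value alone the numbers were 23 other imprinted genes, 13 pathway genes, 30 neighbours and 12645 of all genes. Quantile normalization took the pathway genes from 4 to 2. Rescaling to the same total moved the median of all genes by -0.11 and turned the balance to 1775 higher and 2163 lower. edgeR and DESeq2 on recovered reads gave 3944 and 3870 genes, and leaving out each library 3878 to 3910. The replicate numbers did not pair the libraries (correlation of deviations -0.0999, -0.105 and -0.0199), and a replicate block gave 3897 genes and changed no call of the growth-control genes. The ratios planned between Dlk1 or the non-coding RNAs and Meg3 were not run, because Dlk1 and Meg3 were not analysed here. Depth limits H19, Peg3, Rian, Mirg and Rtl1.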
